A study of Homo sapiens with 24 samples.

Results

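The genes described here are those of the mitochondrial respiratory chain and the ATP synthase, taken by their symbols: the NDUF subunits of complex I, the UQCR subunits of complex III, the COX subunits of complex IV, the ATP5 subunits of the ATP synthase, and the 13 protein-coding genes of mitochondrial DNA. The rule found 92 of the 61251 genes in the table, 79 of them in the nuclear genome and 13 in mitochondrial DNA. The nuclear members were 38 genes of complex I, 8 of complex III, 16 of complex IV and 17 of the ATP synthase. The mitochondrial members were 7 genes of complex I, 1 of complex III, 3 of complex IV and 2 of the ATP synthase. RNA was sequenced in 24 libraries, 4 groups of 6, all of the human cell line KYSE450, which was established from a squamous carcinoma of the oesophagus. The groups were the parental line, drug tolerant persister (DTP) cells of the parental line, a chemoresistant line titled KYSE450DDP, and DTP cells of the chemoresistant line. All 4 groups carry the genotype label WT and were grown in RPMI-1640 with fetal bovine serum, and the labels list no treatment. Beyond the letters DDP in the titles of the resistant line, the labels do not name the drug that selected the resistant or persister cells. Nor do they give its dose or time. Nor is it stated that replicates were grown as separate cultures, so the p-values rest on a spread between libraries that could be technical.

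The respiratory chain passes electrons from NADH and succinate to oxygen and pumps protons across the inner mitochondrial membrane, and the ATP synthase uses the resulting gradient to make ATP. Its complexes are built from subunits of both genomes, except complex II, which is wholly nuclear. The mitochondrial mRNAs are cut from long transcripts that cover nearly a whole strand of the circular genome, so their separate levels depend on processing and decay as well as on transcription. The nuclear subunits are transcribed gene by gene, and the factors NRF1, GABPA (of the ETS family) and YY1 are known to act at many of their promoters.

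Sequences at the junctions of overlapping mitochondrial mRNAs are shown because reads from the shared bases belong to both genes, which bears on the values of the shorter one. The 46 bases shared by MT-ATP8 (at its end) and MT-ATP6 (at its start) and the 7 bases shared by MT-ND4L and MT-ND4 are in capitals. The sequences are those of the GENCODE 29 transcripts on GRCh38, plus strand, at chrM:8513-8572, chrM:8527-8586, chrM:10727-10766 and chrM:10760-10799.
MT-ATP8: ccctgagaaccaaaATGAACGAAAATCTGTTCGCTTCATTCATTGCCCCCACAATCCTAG
MT-ATP6: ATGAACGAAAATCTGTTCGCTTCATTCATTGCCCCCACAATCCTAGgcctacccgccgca
MT-ND4L: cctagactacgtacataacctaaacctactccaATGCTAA
MT-ND4: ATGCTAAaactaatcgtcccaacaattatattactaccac

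Promoters of 3 nuclear members are shown because these genes differ in direction in the results below: COX5B (complex IV) and NDUFB4 (complex I) were higher in the chemoresistant line and NDUFS6 (complex I) was lower. Each is the 250 bases before the start of the RefSeq gene on GRCh38.p14, plus strand, at chr2:97645812-97646061, chr3:120596086-120596335 and chr5:1801157-1801406, with the motif matches found in capitals.
COX5B: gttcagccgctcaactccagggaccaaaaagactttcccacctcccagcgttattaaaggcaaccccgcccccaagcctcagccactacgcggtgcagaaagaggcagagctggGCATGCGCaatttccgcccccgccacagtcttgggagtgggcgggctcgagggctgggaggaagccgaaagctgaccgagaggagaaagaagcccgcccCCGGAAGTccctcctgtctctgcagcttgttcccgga
NDUFB4: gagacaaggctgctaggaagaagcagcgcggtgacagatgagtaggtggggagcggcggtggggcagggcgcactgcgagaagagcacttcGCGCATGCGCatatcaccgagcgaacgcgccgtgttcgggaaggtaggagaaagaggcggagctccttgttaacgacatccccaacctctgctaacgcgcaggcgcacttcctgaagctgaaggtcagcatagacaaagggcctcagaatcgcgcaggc
NDUFS6: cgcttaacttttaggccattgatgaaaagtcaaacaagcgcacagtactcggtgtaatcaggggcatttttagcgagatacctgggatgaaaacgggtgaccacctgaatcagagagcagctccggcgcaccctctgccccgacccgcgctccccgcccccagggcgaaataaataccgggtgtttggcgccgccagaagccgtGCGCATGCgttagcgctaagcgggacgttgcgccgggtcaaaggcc
COX5B held the NRF1 half-site GCATGCGC 136 bases before the start and the ETS site CCGGAAGT at 37 bases, NDUFB4 the full NRF1 site at 159 bases, and NDUFS6 the half-site on the minus strand at 46 bases. Both strands were searched over windows from 250 bases before to 50 bases after each start. RefSeq promoters were found for 65 of the 79 nuclear members, in 77 windows. The half-site, which lies within the full site, was in 13 of these windows (16.9%) against 3.05% of all 35116 windows, and the full site in 3 (3.9%) against 1.24%. The ETS site was in 11 (14.3%) against 4.14%, and the YY1 site in 8 (10.4%) against 1.2%. A match describes the letters of the window and does not show binding, and members of opposite direction (COX5B and NDUFS6) both held the half-site.

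Expression is given as deposited, in FPKM, fragments scaled by gene length and library size. Library totals recovered from the FPKM steps ran from 14947379 to 37989457 reads, and a count of 0 allows up to 3 reads, which covers counting error only. Markers of the labelled cell type were present, with 7 of 7 squamous ones (KRT5 and TP63 among them) averaging at least 1 FPKM in each group. Squamous markers summed to 4082 to 4550 FPKM in parental and 2424 to 2977 in parental DTP libraries. The sums were 4181 to 4962 in chemoresistant and 4997 to 5839 in chemoresistant DTP libraries. Heart and skeletal muscle markers summed to 0.229 FPKM or less in any library, with MYOG at 0. The 5 fibroblast markers summed to 2.17 to 5.78 FPKM in parental, 1.32 to 4.79 in parental DTP, 3.90 to 16.9 in chemoresistant and 2.49 to 12.7 in chemoresistant DTP libraries, with 1, 1, 3 and 1 of 5 averaging at least 1 FPKM. Endothelial markers summed to 0.095 to 0.202, 0.136 to 0.215, 0.888 to 1.14 and 0.340 to 0.568 FPKM, and 4 measured leukocyte markers to 0.051 to 0.113, 0.067 to 2.37, 0.195 to 1.97 and 0.220 to 2.61 FPKM, in the same group order. Among leukocyte markers, 1 averaged at least 1 FPKM, and only in chemoresistant DTP libraries (LYZ, 1.2 FPKM). The fibroblast, endothelial and leukocyte markers thus differed between groups at low levels, by line and by DTP state. The squamous sums differed at high levels and were lowest in parental DTP libraries. The part of all these markers in the results was not tested. Chemoresistant DTP library 2 stood apart from the other 5 of its group: it held the highest value in 66 of the 71 nuclear members that averaged at least 1 FPKM there. Sums, ratios and total counts of called members for that group are therefore given with and without it. Other values, those of single genes among them, include it unless stated.

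Mitochondrial mRNAs exceeded nuclear ones by more than 10 times in summed FPKM in every library, and the ratio was lower in the chemoresistant line. The 13 mitochondrial mRNAs summed to 76377 to 84383 FPKM in the parental libraries (median 80998), 80124 to 95635 in parental DTP (86283), 74907 to 81919 in chemoresistant (78481) and 70850 to 81451 in chemoresistant DTP libraries (77810). Without library 2 the chemoresistant DTP range was 70850 to 79413. The parental range overlapped that of every other group. The 79 nuclear members summed to 3554 to 4073 FPKM (median 3722), 3536 to 4331 (3700), 4295 to 4866 (4561) and 4229 to 6256 (4347) in the same order. All 6 chemoresistant libraries were thus above all 6 parental ones, and the highest chemoresistant DTP value was library 2, without which that group ended at 4558. The ratio of the sums was 21.6 ± 1.84 (SD, n = 6) in parental, 22.9 ± 2.46 in parental DTP, 17.3 ± 0.888 in chemoresistant and 16.7 ± 2.04 in chemoresistant DTP libraries (17.5 ± 1.04 over 5 without library 2). Chemoresistant libraries (16.3 to 18.7) did not overlap parental ones (19.0 to 23.6), and chemoresistant DTP libraries (13.02 to 18.3) did not overlap parental DTP ones (19.5 to 25.3). Scaling of a library cancels in this ratio. A pair of genes weighs on the nuclear sum: ATP5F1B, the catalytic beta subunit of the ATP synthase, at group means of 704 to 821 FPKM, and NDUFS5, an accessory subunit of complex I, at 370 to 515. With each gene weighted alike on the log2 scale, the mitochondrial minus nuclear difference was 7.266 to 7.678 in parental and 6.996 to 7.211 in chemoresistant libraries. It was 7.299 to 7.678 in parental DTP and 6.763 to 7.18 in chemoresistant DTP libraries (6.97 to 7.18 without library 2). As reads, mitochondrial mRNAs made up 7.70% ± 0.284, 8.11% ± 0.714, 6.86% ± 0.214 and 6.84% ± 0.399 of the totals in the 4 groups. Nuclear members made up 0.796% ± 0.035, 0.834% ± 0.069, 0.979% ± 0.036 and 1.00% ± 0.148. Without chemoresistant DTP library 2, the chemoresistant DTP shares were 6.74% ± 0.350 mitochondrial and 0.943% ± 0.025 nuclear (n = 5), the latter below the chemoresistant mean. In bulk RNA, a change in the share of some cells and a change in RNA per cell cannot be told apart.

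**Figure D1:**
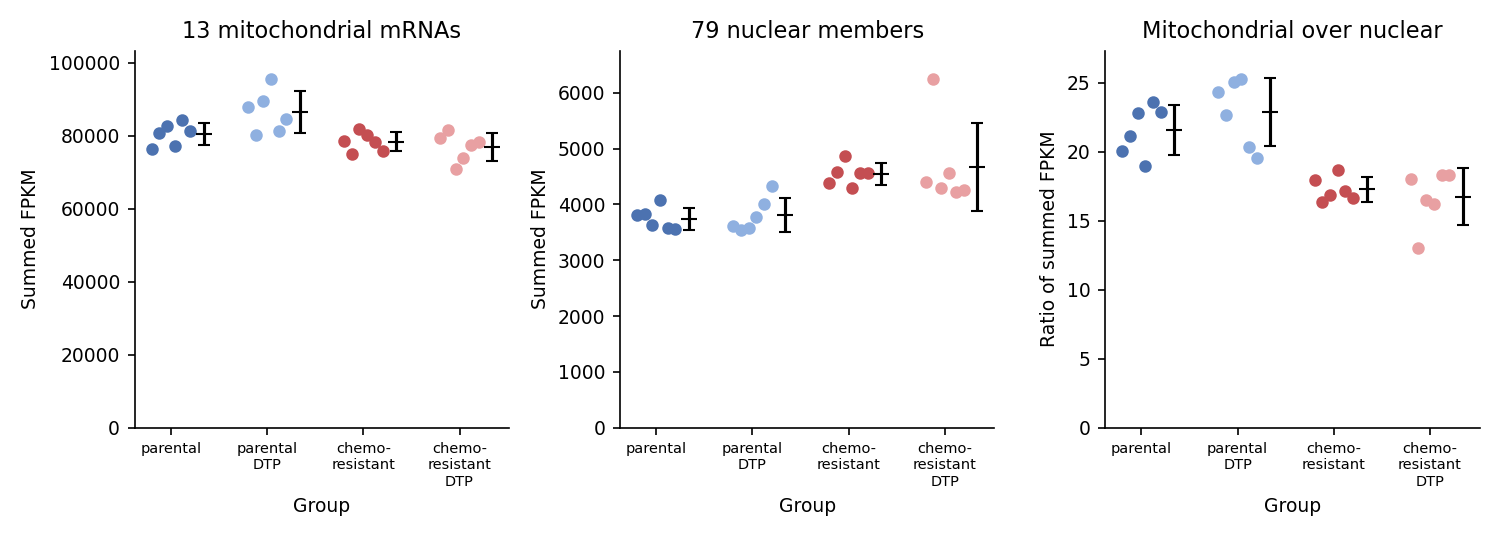
Summed FPKM of the 13 mitochondrial mRNAs (left) and the 79 nuclear members (middle) and their ratio (right), with 1 point per library and mean ± SD (bars) for the 4 groups of 6. Nuclear sums of the 6 chemoresistant libraries lie above all parental ones, and 1 chemoresistant DTP library is at 6256 FPKM.

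In the chemoresistant line against the parental line, mitochondrial mRNAs did not move together: 6 of 13 fell, 2 rose and 5 did not pass the test. The test was limma on log2(FPKM + 1) over 13729 genes, and a call is a Benjamini-Hochberg adjusted p under 0.05. In this comparison 77.5% of all genes tested were called (48.2% higher, 29.4% lower), so a call alone is common here. The median log2 fold change was 0.02 for the mitochondrial mRNAs and 0.14 for all genes tested. Of the 13, 7 had groups that did not overlap. The share of all genes tested whose groups did not overlap was not counted, in this or the other comparisons.

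MT-ND1, a core subunit of complex I at the membrane arm, moved most. Its level was 4687, 4897 and 5092 FPKM in the parental libraries (lowest, median and highest), 3289, 3830 and 4360 in parental DTP, 1940, 2103 and 2179 in chemoresistant and 2424, 2656 and 2930 in chemoresistant DTP libraries. No 2 groups overlapped, and the order was parental, parental DTP, chemoresistant DTP, chemoresistant. The chemoresistant mean was 0.426 times the parental one (log2 fold change -1.23, SE 0.057, adjusted p = 1.15e-15). As a share of the summed mitochondrial mRNAs, which library scaling does not affect, MT-ND1 was 6.08% ± 0.261, 4.42% ± 0.344, 2.66% ± 0.109 and 3.47% ± 0.179 in the order parental, parental DTP, chemoresistant, chemoresistant DTP.

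MT-ND5, the most distal proton-pumping subunit of complex I, was 2891, 3234 and 3490 FPKM in parental and 1815, 1863 and 1955 in chemoresistant libraries. The groups did not overlap, and the log2 fold change was -0.79 (SE 0.072, adjusted p = 4.76e-10). The other falls were smaller. MT-CO1, the catalytic subunit of complex IV, went from 14782 ± 437 to 12500 ± 468 FPKM (log2 fold change -0.24, adjusted p = 0.0013), and MT-CYB, the only mitochondrially encoded subunit of complex III, from 3163 ± 81.7 to 2822 ± 63.5 (-0.17, adjusted p = 0.00143), both without overlap. MT-ND2 (-0.30) and MT-ND4 (-0.20) also passed, but MT-ND2 did not without parental library 5 (adjusted p = 0.0534), nor did MT-ND4 without parental library 5 (0.0801) or chemoresistant library 2 (0.0572).

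MT-ND4L, a small membrane subunit of complex I, rose from 10282 ± 760 to 13915 ± 722 FPKM without overlap (0.44, SE 0.11, adjusted p = 0.00076), although MT-ND4, with which it shares a transcript, was lower. MT-ATP8, an accessory subunit of the ATP synthase proton channel, was 284, 456 and 1023 FPKM in parental and 749, 922 and 1197 in chemoresistant libraries (0.89, SE 0.25, adjusted p = 0.0029). These groups overlapped because the parental group was split. Parental libraries 5 and 6, at 1023 and 1015 FPKM, lay within the chemoresistant range, while libraries 1 to 4 ended at 462.5. Parental libraries 5 and 6 stood apart for other genes as well, in both directions. They were high for ATP5PF, at 24.97 and 23.92 FPKM, against 15.41 to 17.84 in libraries 1 to 4. The same held for MT-RNR2 (11142 and 11358 against 7829 to 9346) and MALAT1 (33.36 and 31.03 against 18.98 to 22.35). NDUFB10 was low there, at 174 and 162.3 against 210.3 to 229.5 FPKM. No fit left out both libraries, so the part of this split in calls against the parental group was not tested. MT-ATP8 had the shortest gene among the 13, of 207 bases, of which 22.2% lie within MT-ATP6. MT-ATP6, with which it shares a transcript, had 0.07. MT-ND3, MT-ND6, MT-CO2, MT-CO3 and MT-ATP6 did not pass, with log2 fold changes from 0.02 to 0.17.

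**Figure D2:**
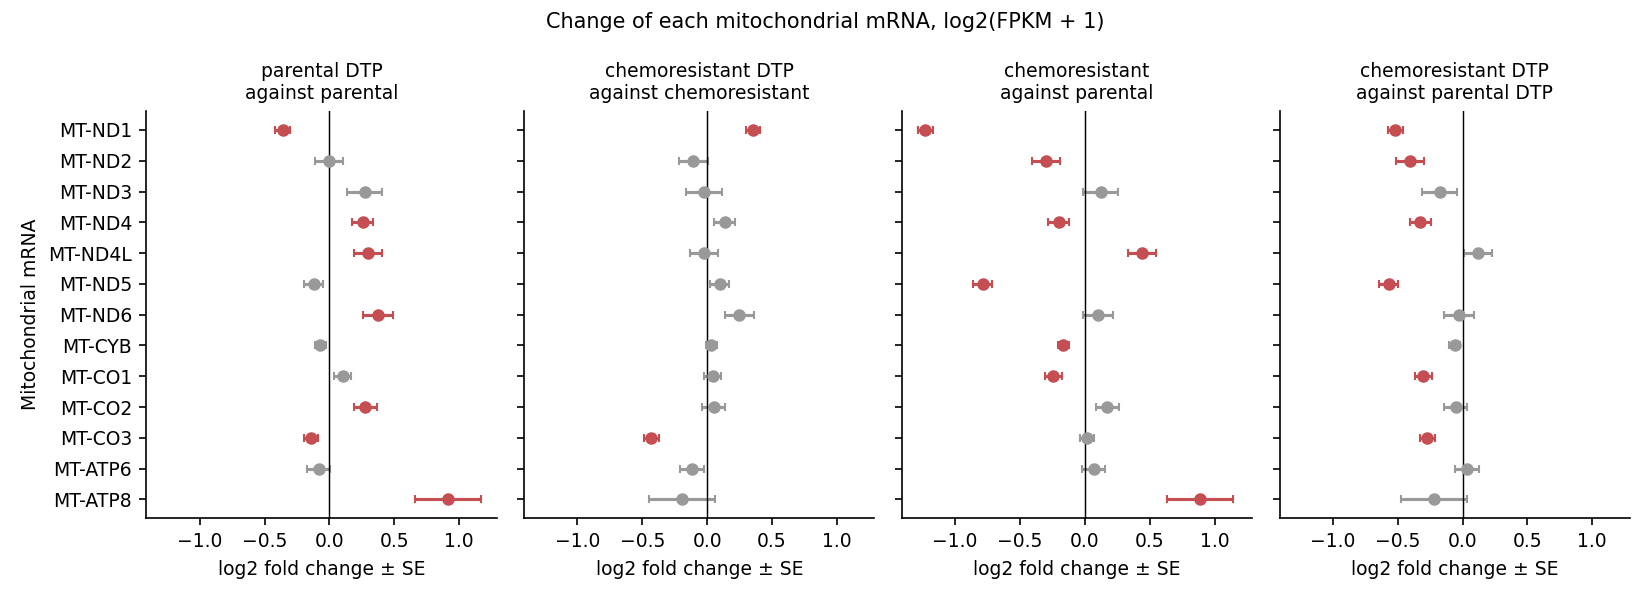
Log2 fold change ± SE of the 13 mitochondrial mRNAs in 4 comparisons, on log2(FPKM + 1), with called genes in red and others in grey. MT-ND1 is at -1.23 in chemoresistant against parental libraries while MT-ND4L is at 0.44, and MT-CO3 is called lowest in chemoresistant DTP against chemoresistant libraries.

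Other mitochondrial reads moved in the same comparison, and their part in these values was not tested. The mitochondrial rRNAs were lower in the chemoresistant line, MT-RNR1 by 0.46 on the log2 scale (group means 1334 and 965 FPKM, adjusted p = 2.04e-06) and MT-RNR2, whose gene lies just before MT-ND1, from 9470 ± 1462 to 5972 ± 1045 FPKM (-0.67, adjusted p = 4.58e-05). Nuclear copies of mitochondrial genes can take reads from the originals. Of 8 measured copies, 6 were called lower and none higher in the chemoresistant line, such as MTCO1P12 (98.6% identical to MT-CO1) from 2057 to 1264 FPKM and MTATP6P1 (98.5% identical to MT-ATP6) from 1340 to 862 FPKM. All copies together took 0.429%, 0.452%, 0.261% and 0.263% of reads in the order parental, parental DTP, chemoresistant, chemoresistant DTP, against 6.84% to 8.11% for the 13 mitochondrial mRNAs. The copy MTND1P23 aligned to 36.8% of MT-ND1. The nuclear-retained RNAs MALAT1 (-0.52, adjusted p = 0.00207) and NEAT1 (1.68, adjusted p = 1.15e-14) moved in opposite directions in this comparison, and the part of nuclear RNA was not tested.

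**Figure D3:**
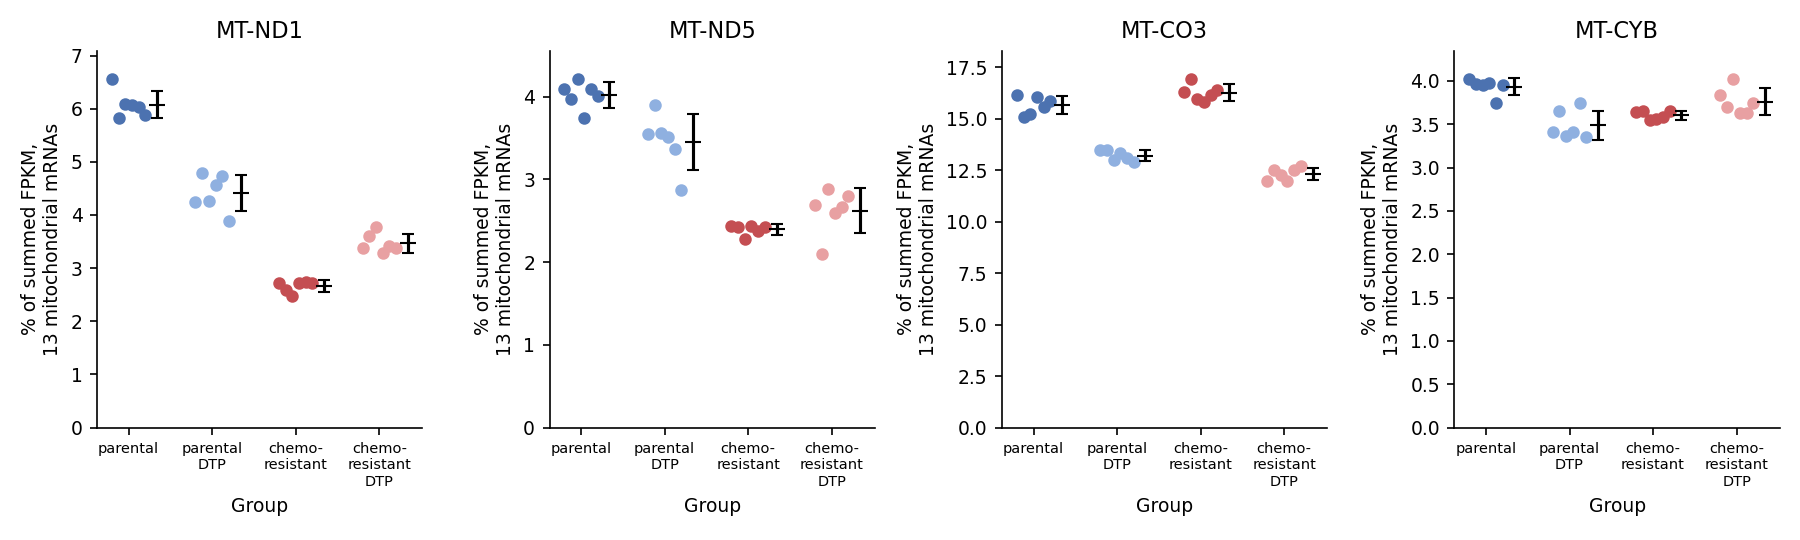
Share of the summed mitochondrial mRNA FPKM (%) held by MT-ND1, MT-ND5, MT-CO3 and MT-CYB, with 1 point per library and mean ± SD for the 4 groups of 6. MT-ND1 falls in 4 separate ranges around 6.08%, 4.42%, 2.66% and 3.47%, and MT-CO3 is lower in both DTP groups.

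On FPKM, nuclear members were mostly higher in the chemoresistant line than in the parental one. Of 72 tested, 52 rose (72.2%, against 48.2% of all genes), 5 fell (6.94%, against 29.4%) and 15 did not pass, and the median log2 fold change was 0.30 against 0.14 for all genes. Of these 72, 47 had groups without overlap, and the share of all genes without overlap was not counted. The other 7 of the 79 averaged under 1 FPKM in every group and were not tested. With library factors of relative log expression, which set the median gene near 0, there were 31 rises and 10 falls, with a median of 0.14, against 38.7% and 38.9% of all genes. The mitochondrial count was then 2 higher and 7 lower.

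Complex IV was the most uniform. All 10 nuclear members tested rose, with a median of 0.57, and under relative log expression scaling 9 of 10 rose (median 0.39). On FPKM the groups of all 10 did not overlap, a count with no share of all genes to set beside it. COX5B, a subunit on the matrix side, was 90.8, 97.6 and 105.9 FPKM in parental and 158, 177 and 193 in chemoresistant libraries. The lowest chemoresistant library was thus well above the highest parental one, and the log2 fold change was 0.83 (SE 0.11, adjusted p = 1.36e-07). COX7C, a small membrane subunit, went from 38.1 ± 2.02 to 69.1 ± 1.47 FPKM (0.85), and COX6A1, the ubiquitous form of a regulatory subunit, from 10.8 ± 0.987 to 19.6 ± 1.70 FPKM (0.80). The mitochondrial partners of the same complex, MT-CO1, MT-CO2 and MT-CO3, had -0.24, 0.17 and 0.02, of which only MT-CO1 passed.

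In complex I, 25 of 37 nuclear members rose and 3 fell (median 0.28). NDUFA3, an accessory membrane subunit, was 8.70, 10.7 and 12.02 FPKM in parental and 17.5, 20.4 and 24.4 in chemoresistant libraries, without overlap (0.92, SE 0.11, adjusted p = 5.43e-08). NDUFA2, an accessory subunit of the NADH-oxidising arm, went from 15.7 ± 0.436 to 27.9 ± 2.37 FPKM (0.79). NDUFS6, a zinc-binding subunit added late in assembly, went the other way, from 182, 191 and 213 to 136, 143 and 146 FPKM. These groups did not overlap either (-0.44, SE 0.080, adjusted p = 2.68e-05). NDUFA10, an accessory subunit of the membrane arm, fell slightly, from 9.46 ± 0.451 to 8.44 ± 0.410 FPKM (-0.15, adjusted p = 0.00218). The third fall, NDUFA4 (now counted with complex IV by its protein, -0.18, adjusted p = 0.0409), was lost when any 1 of 7 single libraries was left out (adjusted p from 0.0516 to 0.0838).

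In complex III, 5 of 8 rose and UQCRFS1 fell (median 0.24). UQCRFS1 is the Rieske iron-sulfur protein, which hands electrons to cytochrome c1, and was 29.97, 32.6 and 33.9 FPKM in parental and 24.1, 26.6 and 26.9 in chemoresistant libraries, without overlap (-0.29, adjusted p = 0.000466). Of the 17 ATP synthase members, 12 rose and 1 fell (median 0.28). The fall was in ATP5MG, a membrane subunit at the dimer interface, at a low level: 4.15 ± 0.729 and 2.18 ± 0.403 FPKM (-0.70, adjusted p = 5.52e-07). Under relative log expression scaling the counts outside complex IV were nearer to even. They were 14 higher and 6 lower of 37 in complex I, 1 and 2 of 8 in complex III, and 7 and 2 of 17 in the ATP synthase. Of all genes, 38.7% were higher and 38.9% lower under that scaling. Rises in complexes I and III were thus no more frequent than among all genes.

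**Figure D4:**
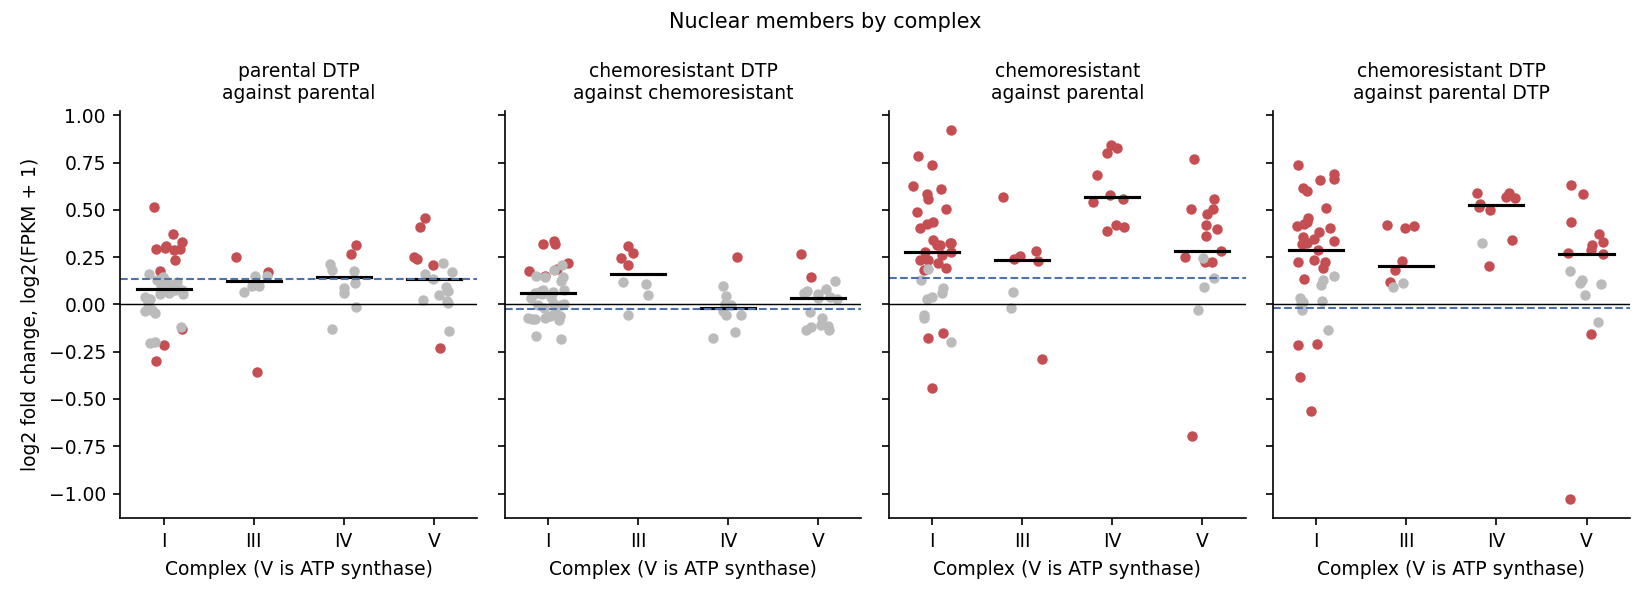
Log2 fold change, on log2(FPKM + 1), of the 72 nuclear members tested, by complex, in 4 comparisons, with called genes in red, others in grey, the median of each complex as a black bar and the median of all genes tested as a dashed line. All 10 complex IV members are above 0 in chemoresistant against parental libraries, with a median of 0.57.

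In DTP cells of the parental line against the parental line, the direction of the nuclear members depended on scaling. On FPKM, 19 of 72 rose and 5 fell (median 0.11, and 0.14 for all genes), where 65.5% of all genes were called, 45.8% higher and 19.7% lower. With relative log expression factors there were 6 rises and 14 falls (median -0.07), where 32.3% of all genes were higher and 32.5% lower. Of the 72, 8 had groups without overlap, again with no share of all genes counted. Leaving out parental DTP libraries 5 and 6 gave 14 rises and 5 falls, where 43% of all genes were higher and 19.5% lower.

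UQCRFS1 fell from 32.2 ± 1.56 to 25.0 ± 2.30 FPKM without overlap (-0.36, SE 0.067, adjusted p = 5.55e-05). NDUFS1, the largest core subunit of complex I and a carrier of iron-sulfur clusters, was 8.64, 9.11 and 9.69 FPKM in parental and 10.6, 11.04 and 13.8 in parental DTP libraries (0.30, adjusted p = 3.81e-05), without overlap. NDUFC1, an accessory subunit of complex I, rose from 8.89 ± 0.391 to 11.4 ± 0.590 FPKM (0.33), and ATP5PF, a subunit of the peripheral stalk of the ATP synthase, had 0.41, but neither passed under relative log expression scaling (adjusted p = 0.0727 and 0.0711). ATP5MG rose from 4.15 ± 0.729 to 6.07 ± 0.883 FPKM (0.46, adjusted p = 0.000206), and the groups overlapped. NDUFA10 fell by 0.13 (adjusted p = 0.00758). Calls that single libraries ended were a rise of COX7C (0.31, lost without parental DTP library 5 or 6, adjusted p = 0.0615 and 0.0568), and falls of ATP5MC3 (-0.23, lost without parental library 2 or 4, 0.0536 and 0.0534), NDUFB10 (-0.30, lost without parental DTP library 5, 0.0547) and NDUFS5 (-0.22, lost without any 1 of 8 libraries, 0.056 to 0.097). Parental DTP libraries 5 and 6 stood apart together for COX7C, at 65.67 and 61.5 FPKM, where the others ended at 42.01. With both left out, COX7C had 0.107 (adjusted p = 0.277) and NDUFS5 had -0.209 (0.0778).

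Of the 13 mitochondrial mRNAs, 5 rose (38.5%, against 45.8% of all genes) and 2 fell (15.4%, against 19.7%) in parental DTP cells on FPKM. By relative log expression factors these were 1 and 5. MT-ND1 fell under both (-0.36, SE 0.057, adjusted p = 7.17e-06 on FPKM) and was the only one of the 13 whose groups did not overlap. MT-ATP8 rose under both (0.91, adjusted p = 0.00303), and its groups overlapped through parental libraries 5 and 6, at 1023 and 1015 FPKM. The rises of MT-CO2 (0.28), MT-ND4 (0.26), MT-ND4L (0.30) and MT-ND6 (0.37) did not pass under relative log expression scaling (adjusted p from 0.155 to 0.523), and MT-ND4L did not pass without parental DTP library 5 (0.051) or 6 (0.0621). With both of these libraries left out, MT-ND4L had 0.135 (adjusted p = 0.218) and MT-ND6 had 0.252 (0.0659). MT-CO3, a core subunit of complex IV, had -0.14 (adjusted p = 0.0266), which was lost without parental library 5 (0.0554) or parental DTP library 2 (0.0625) or 5 (0.0598). It had -0.101 with parental DTP libraries 5 and 6 both left out (adjusted p = 0.123). Its share of the summed mitochondrial mRNAs was 15.7% ± 0.434 in parental and 13.2% ± 0.259 in parental DTP libraries, with ranges of 15.1% to 16.2% and 12.9% to 13.5% that did not overlap. MT-RNR2 rose from 9470 to 15200 FPKM (0.67, adjusted p = 6.47e-05) while MT-RNR1 had 0.09 (adjusted p = 0.275). The nuclear-retained RNAs MALAT1 (0.46) and NEAT1 (1.57) rose in the same libraries, and the part of nuclear RNA in these values was not tested.

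In DTP cells of the chemoresistant line against the chemoresistant line, 14 of 72 nuclear members rose and none fell on all libraries, where 48% of all genes were called, 20.5% higher and 27.4% lower. The median log2 fold change was 0.05, against -0.02 for all genes. With relative log expression factors 14 of the 72 nuclear members were higher and 0 lower, where 23.7% of all genes were higher and 25.2% lower. Without chemoresistant DTP library 2, 8 rose and 13 fell with a median of -0.04, where 24.6% and 28% of all genes were higher and lower. Complex IV then had 0 higher and 3 lower of 10, in place of 1 and 0, and the median of its members went from -0.02 to -0.13.

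NDUFB4, an accessory membrane subunit of complex I, was 44.1, 47.1 and 48.1 FPKM in chemoresistant and 53.8, 56.6 and 71.4 in chemoresistant DTP libraries. These groups did not overlap (0.32, SE 0.068, adjusted p = 0.000363), and the lowest DTP value was not from library 2, which held the highest. ATP5PB, the b subunit of the peripheral stalk of the ATP synthase, was 60.1, 62.3 and 63.4 against 69.3, 71.95 and 94.9 FPKM, also without overlap (0.27, adjusted p = 0.000964). In complex III, UQCR10 (0.31) and UQCRQ (0.27), 2 small subunits, and in complex IV COX6C (0.25) passed on all libraries. They did not without chemoresistant DTP library 2 (adjusted p = 0.0688, 0.0751 and 0.0721). The same held for UQCR10 without chemoresistant library 5 (0.0518) or chemoresistant DTP library 6 (0.0504), UQCRQ without chemoresistant library 2 (0.0518) or chemoresistant DTP library 4 (0.0565), and COX6C without chemoresistant library 3 (0.0658).

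Of the mitochondrial mRNAs, MT-ND1 rose and MT-CO3 fell in chemoresistant DTP cells, both without overlap, and the other 11 did not pass. MT-CO3 was 12439, 12696 and 13060 FPKM in chemoresistant and 8684, 9588 and 10199 in chemoresistant DTP libraries (-0.43, SE 0.055, adjusted p = 7.26e-07). Its share of the mitochondrial sum went from 16.3% ± 0.393 to 12.3% ± 0.296. MT-ND1 had 0.35 (SE 0.057, adjusted p = 1.86e-05), a ratio of means of 1.28. MT-RNR2 had 0.02 (adjusted p = 0.923), and MALAT1 (0.41, adjusted p = 0.0217) and NEAT1 (0.26, adjusted p = 0.0191) rose in these libraries. Without chemoresistant DTP library 2 the mitochondrial counts were 1 higher and 2 lower.

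Between the 2 DTP groups, most nuclear members were higher in the chemoresistant line, and 6 of 13 mitochondrial mRNAs were lower. Of 72 nuclear members 48 rose and 6 fell (median 0.30, against -0.02 for all genes), where 61.9% of all genes were called, 29.5% higher and 32.3% lower. Of the 13 mitochondrial mRNAs none rose, 6 fell and 7 did not pass, with a median of -0.22, and their summed FPKM overlapped between the groups. By relative log expression factors the nuclear counts were 49 and 4 and the mitochondrial ones 0 and 6, where 31.6% of all genes were higher and 30.9% lower. Without chemoresistant DTP library 2 they were 44 and 6, and 0 and 6, where 31.9% and 31.6% of all genes were. In complex IV, 9 of 10 nuclear members rose (median 0.52), the other being COX8A (0.33, adjusted p = 0.115).

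NDUFA1, an accessory membrane subunit of complex I encoded on the X chromosome, was 75.7, 83.5 and 105.5 FPKM in parental DTP and 122, 139 and 214 in chemoresistant DTP libraries. The groups did not overlap (0.74, SE 0.11, adjusted p = 2.73e-06). Of the 766 exon bases of NDUFA1 in GENCODE 29, 44.5% are shared with another gene. The deposited value used 421 bases, so this share may not apply to it. NDUFB4 (0.67), NDUFA2 (0.69) and ATP5MC3 (0.63), one of 3 genes for the membrane ring of the ATP synthase, rose as well. NDUFS6 fell (-0.38, adjusted p = 0.00023), from 194 ± 10.2 to 150 ± 31.6 FPKM, and the overlap of its groups came from chemoresistant DTP library 2, at 214 FPKM where the others ended at 145. ATP5MG fell most, from 6.07 ± 0.883 to 2.45 ± 0.278 FPKM without overlap (-1.03, adjusted p = 1.65e-09), with 12.5% of its GENCODE 29 exon bases shared with another gene. NDUFC2, at 3.59 and 2.11 FPKM, also fell (-0.56) and was singled out after its value was seen. NDUFA4 (-0.21) was lost without parental DTP library 5 (adjusted p = 0.0671) or 6 (0.0507) or chemoresistant DTP library 1 (0.0585), and ATP5MC2 (-0.16) without any 1 of 17 libraries (0.0512 to 0.117). With parental DTP libraries 5 and 6 both left out, NDUFA4 had -0.098 (adjusted p = 0.22).

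The mitochondrial falls between the DTP groups were MT-ND5 (-0.57, adjusted p = 2.53e-07), MT-ND1 (-0.52, adjusted p = 3.24e-08) and MT-CO3 (-0.27, adjusted p = 0.000173) without overlap, and MT-ND2 (-0.40), MT-ND4 (-0.33) and MT-CO1 (-0.30) with overlap. MT-ND5 was 2992 ± 344 FPKM in parental DTP and 2010 ± 173 in chemoresistant DTP libraries. MT-RNR2 was lower too (15200 and 5968 FPKM, -1.33, adjusted p = 2.76e-09), beside MTCO1P12 (2289 and 1274 FPKM, -0.84), and MALAT1 (-0.57) was lower while NEAT1 (0.37) was higher.

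The change with the DTP state was compared between the lines by the interaction term of the same fit, in which a positive value means that the change was more positive in the chemoresistant line. Of 72 nuclear members 8 were called higher and 11 lower (median -0.06, against -0.17 for all genes), where 63.8% of all genes were called, 20.5% higher and 43.4% lower. Under relative log expression scaling 15 were higher and 1 lower, where 31.2% and 32.9% of all genes were, and without chemoresistant DTP library 2 the FPKM counts were 8 and 29, where 22.8% and 44.2% of all genes were. UQCRFS1 (0.47, SE 0.095, adjusted p = 0.000148), NDUFB4 (0.35, adjusted p = 0.0026), NDUFS5 (0.43), NDUFS3 (0.38) and NDUFA12 (0.29) were called higher. NDUFS3 is a core subunit and NDUFA12 an accessory one of complex I. ATP5F1A, the catalytic alpha subunit of the ATP synthase (-0.38), ATP5MC2 (-0.38), NDUFC1 (-0.41), ATP5MG (-0.34) and NDUFB6 (-0.31) were called lower on FPKM, and none of these 5 passed under relative log expression scaling (adjusted p from 0.0905 to 0.506). The call of ATP5MG ended without any 1 of 12 libraries (0.0504 to 0.0658). That of NDUFB6 ended without parental DTP library 6 (adjusted p = 0.0511), and without libraries 5 and 6 of that group (0.0944).

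Among mitochondrial mRNAs the interaction was called for MT-ND1 (0.71, SE 0.081, adjusted p = 4.8e-08), MT-ATP8 (-1.11, adjusted p = 0.00949) and MT-CO3 (-0.29, adjusted p = 0.00263). The value of MT-ATP8 rests on a parental group split between libraries 1 to 4 and the higher libraries 5 and 6. MT-ATP6, on the same transcript, had -0.03 and was not called. MT-ND1 fell with the DTP state in the parental line and rose in the chemoresistant line, so its DTP groups were nearer to each other (3817 and 2662 FPKM) than the lines they came from (4885 and 2083 FPKM). The interaction of MT-CO3 did not pass under relative log expression scaling (adjusted p = 0.523).

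Members with tissue-bound or condition-bound forms were almost only present as the ubiquitous form. COX4I2, COX6A2, COX7A1, COX7B2 and COX8C, known from lung, muscle, testis or other special settings, had 4, 2, 55, 0 and 11 reads over all 24 libraries and stayed below the filter. COX6B2, the testis form, had 334 reads, with a mean of 0.042 ± 0.028 FPKM in parental, 0.091 ± 0.030 in parental DTP, 0.291 ± 0.036 in chemoresistant and 0.217 ± 0.037 in chemoresistant DTP libraries, and the parental range (0.010 to 0.084) did not reach the chemoresistant one (0.237 to 0.343). Its ubiquitous partner COX6B1 was at 87.2 ± 7.29 and 128.8 ± 7.67 FPKM in parental and chemoresistant libraries (0.56, adjusted p = 9.03e-06). COX4I1, the partner of COX4I2, was at 87.2 ± 5.65 and 117.2 ± 7.996 FPKM (0.42), COX7A2 at 23.2 ± 1.13 and 35.1 ± 1.60 (0.58), COX7B at 55.3 ± 6.42 and 72.6 ± 6.87 (0.39) and COX8A at 51.5 ± 8.28 and 83.2 ± 11.8 FPKM (0.69). Of the exon bases of COX8A, 34.5% are shared with another gene. The 3 ring genes of the ATP synthase, which encode the same mature protein, all rose in the chemoresistant line: ATP5MC1 (0.40), ATP5MC2 (0.23) and ATP5MC3 (0.36). NDUFA7, a complex I subunit, was the other member below the filter, with 214 reads, and 33.5% of its exon bases lie in another gene. Levels of nuclear members are set per exon length, from 421 bases for NDUFA1 to 19359 for NDUFA10, which includes exons of rare transcripts, so a gene with much unused exon sequence reads low.

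Genes that make, assemble or serve the chain were counted from fixed lists, with chemoresistant DTP library 2 included. Their counts are read against the shares of all genes. In chemoresistant against parental libraries those were 48.2% higher and 29.4% lower on FPKM, and 38.7% and 38.9% with relative log expression factors. In parental DTP against parental they were 45.8% and 19.7%, and 32.3% and 32.5%. In chemoresistant DTP against chemoresistant they were 20.5% and 27.4%, and 23.7% and 25.2%, and in the interaction 20.5% and 43.4%, and 31.2% and 32.9%. Of 75 members of the mitochondrial ribosome tested, which translates the 13 mRNAs, 10 rose and 47 fell in the chemoresistant line (median -0.29), and 4 and 60 with relative log expression factors. In parental DTP cells 10 rose and 32 fell (0 and 50), in chemoresistant DTP cells 34 rose and 4 fell (36 and 4), and in the interaction 39 were higher and 5 lower (59 and 1), with the counts by relative log expression factors in parentheses here and in the lists that follow. MRPL15, of the large subunit, was at 33.5 ± 3.37, 20.8 ± 2.12, 18.1 ± 0.948 and 29.7 ± 2.60 FPKM in the order parental, parental DTP, chemoresistant, chemoresistant DTP (interaction 1.34, adjusted p = 1.57e-11). MRPL47 was at 46.3 ± 5.82, 41.3 ± 4.06, 27.3 ± 4.26 and 46.2 ± 5.44 FPKM, and MRPL1 at 13.1 ± 2.83, 13.7 ± 2.79, 8.71 ± 1.82 and 14.9 ± 1.52 FPKM.

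Of 25 genes of mitochondrial transcription and RNA processing, 6 rose and 13 fell in the chemoresistant line (2 and 17), with a median of -0.21. In parental DTP cells 4 rose and 13 fell (2 and 15), and in chemoresistant DTP cells 11 rose and 2 fell (15 and 2). FASTKD5, known to be needed for the processing of mitochondrial mRNAs that no tRNA borders, MT-CO3 among them, was at 20.2 ± 0.634, 11.9 ± 0.837, 7.72 ± 0.467 and 8.24 ± 0.588 FPKM in these groups, lower in the chemoresistant than in the parental line (-1.29, adjusted p = 1.36e-17). TFB1M, which methylates the small mitochondrial rRNA, went from 2.50 ± 0.232 FPKM in the parental to 4.74 ± 0.720 FPKM in its DTP libraries (0.70, adjusted p = 3.73e-09). MTERF1, which binds mitochondrial DNA just after the MT-RNR2 gene, was at 5.23 ± 0.982, 9.82 ± 1.19, 6.40 ± 1.27 and 7.43 ± 0.590 FPKM, higher in parental DTP than in parental cells (0.80, adjusted p = 5.25e-07).

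Of 16 assembly factors for complex I, 6 rose and 7 fell in the chemoresistant line (3 and 9), with a median of -0.14 on FPKM and -0.29 by relative log expression factors. Of 27 tested for complexes III, IV and V, 9 rose and 10 fell (6 and 15), with medians of -0.01 and -0.17. NDUFAF4, an assembly factor of complex I, was at 4.79 ± 0.673 FPKM in chemoresistant and 8.91 ± 0.665 in chemoresistant DTP libraries (0.78, adjusted p = 1.28e-07). SCO2, which delivers copper to complex IV, was at 0.123 ± 0.048, 0.135 ± 0.037, 1.87 ± 0.369 and 0.666 ± 0.202 FPKM (chemoresistant against parental 1.35, adjusted p = 4.08e-14). TTC19, which clears fragments of UQCRFS1 from complex III, rose in parental DTP cells from 7.85 ± 0.323 to 11.7 ± 0.521 FPKM (0.52, adjusted p = 1.28e-09), and COA7, a complex IV assembly factor, fell from 17.0 ± 0.779 to 11.7 ± 0.563 FPKM (-0.50, adjusted p = 1.49e-09).

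Among 6 genes of complex II, cytochrome c1 and cytochrome c, 2 rose and 1 fell in the chemoresistant line (1 and 3), with medians of -0.01 and -0.18. CYCS, which encodes cytochrome c, was at 64.6 ± 6.33, 58.2 ± 8.65, 42.3 ± 5.83 and 67.8 ± 5.14 FPKM, lower in the chemoresistant line (-0.61, adjusted p = 1.69e-06) and higher in its DTP cells (0.68, adjusted p = 1.27e-06). SDHC, a membrane anchor of complex II, rose from 36.7 ± 3.24 to 52.8 ± 1.92 FPKM in the chemoresistant line (0.52). NDUFA4L2, a hypoxia-induced relative of NDUFA4, was at 5.13 ± 1.60, 8.55 ± 1.09, 12.5 ± 1.87 and 5.16 ± 0.498 FPKM, a rise in parental DTP (0.67) and a fall in chemoresistant DTP cells (-1.13) with an interaction of -1.80 (adjusted p = 8.26e-09). COX7A2L, which joins complexes III and IV into supercomplexes, rose in both DTP groups (0.69 and 0.22).

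Of 16 genes of mitochondrial DNA maintenance, 7 rose and 6 fell in the chemoresistant line (3 and 7). POLG, the catalytic subunit of the mitochondrial DNA polymerase, was at 26.6 ± 1.23, 16.8 ± 1.19, 18.4 ± 1.10 and 20.5 ± 2.24 FPKM, lower in parental DTP (-0.63) and chemoresistant cells (-0.51) than in parental ones. Of 9 biogenesis regulators tested, 1 rose and 3 fell in the chemoresistant line (0 and 7), with medians of -0.14 and -0.29. PPRC1, a coactivator of NRF1, was at 40.1 ± 3.25, 25.6 ± 2.66, 20.5 ± 0.889 and 22.5 ± 2.38 FPKM (chemoresistant against parental -0.93, adjusted p = 1.53e-11). HIF1A, the oxygen-regulated subunit of a factor that lowers respiration, was at 70.1 ± 8.23, 160.8 ± 26.2, 62.4 ± 6.96 and 68.2 ± 9.26 FPKM, and rose in the parental DTP cells (1.18, adjusted p = 1.86e-09) with a call of the interaction (-1.05, adjusted p = 2.58e-06).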

How the data were processed

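The authors deposited 1 table of FPKM, which the submitters' processing notes tie to GRCh38. How reads were aligned and counted, with which gene models and whether by strand, is not given in the sources used here. Per the labels' protocols, RNA was extracted with TRIzol. Left out were 23 stray lines of annotation text. The FPKM values of 41099 of 41101 genes (99.995%) were whole multiples of 1 read, within 0.02 reads, and these reads gave the depth and the exon length used.

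Values were tested with limma 3.58.1 (R 4.3.3), with a mean-variance trend, on log2(FPKM + 1), a scale that understates changes of low genes. The fit had 4 group means over 24 libraries and the 13729 genes whose average reached 1 FPKM in some group. Tests were two-sided and adjusted by the Benjamini-Hochberg method over all genes tested, at 0.05. The script was tested on simulated data. Replicate numbers did not pair the libraries and were not used. Groups came from the labels. Members and lists were chosen with earlier results of these data known, and sums and medians over members carry no test. Named were all 13 mitochondrial mRNAs, the 5 largest rises and falls per comparison among called nuclear members at 5 FPKM or more in the higher group, isoform pairs, and up to 3 members per list. Nuclear copies were aligned with Biopython 1.88. Alternatives were another scaling, mitochondrial genes left out of the total, another pseudocount, no filter, a replicate block, voom on the recovered reads, and libraries left out. Some genes chosen by the rule for named genes are not reported here.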

Additional observations from a re-analysis of the deposited data

Results flagged for a closer look

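Single libraries far from the other 5 of their group were found in 41 of 196 groups of values checked, by the gap to the nearest library as a part of the whole range, where chance gives about 1 in 20. Of these, 31 were in chemoresistant DTP library 2, and all 31 were high there. The nuclear sum of that library was 6256 FPKM, where the next was 4558. In complex I, in FPKM, it had NDUFC1 at 15.2, NDUFB10 at 287, NDUFS5 at 736, NDUFA10 at 10.5, NDUFB4 at 71.4, NDUFA3 at 25.5, NDUFA2 at 41.6, NDUFS6 at 214, NDUFA4 at 32.3, NDUFA1 at 214, NDUFS3 at 25.4, NDUFA12 at 9.25 and NDUFB6 at 26.7. In complex III it had UQCRFS1 at 36.5. In complex IV it had COX7C at 94.5, COX6C at 38.0, COX5B at 261, COX6A1 at 31.4, COX4I1 at 167, COX6B1 at 183, COX7A2 at 54.3, COX7B at 109 and COX8A at 115. In the ATP synthase it had ATP5MC3 at 114, ATP5PB at 94.9, ATP5MC2 at 44.9, ATP5F1A at 39.5 and ATP5MC1 at 30.9. Among mitochondrial mRNAs it had MT-ATP6 at 6917 and MT-ND6 at 977.
Chemoresistant library 3 was high, in FPKM, for MT-ATP6 at 6320, MT-CO2 at 16281, NDUFS5 at 499.6, ATP5MC2 at 40.9 and COX7B at 85.5, and low for UQCRFS1 at 24.1. Parental DTP library 5 was high for MT-ND3 at 2401 and COX6C at 24.4, and parental DTP library 6 for ATP5MC3 at 65.4 and NDUFA3 at 15.9.

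The change with the DTP state differed between the lines, by limma's interaction term, for 13 named members. On the log2 scale the change was more positive in the chemoresistant line for MT-ND1 (0.71), UQCRFS1 (0.47), NDUFS5 (0.43), NDUFS3 (0.38), NDUFB4 (0.35) and NDUFA12 (0.29). It was more negative there for MT-ATP8 (-1.11), NDUFC1 (-0.41), ATP5MC2 (-0.38), ATP5F1A (-0.38), ATP5MG (-0.34), NDUFB6 (-0.31) and MT-CO3 (-0.29).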

How the results depend on the processing

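Totals of called members over both directions stayed within 1.5 times the reported ones under relative log expression scaling, mitochondrial genes left out of the total, a pseudocount of 0.1, the replicate block, voom (chosen after seeing the data) and parental DTP libraries 5 and 6 left out. Their split did not hold under relative log expression scaling: nuclear rises and falls went from 19 and 5 to 6 and 14 in parental DTP against parental, from 52 and 5 to 31 and 10 in chemoresistant against parental and from 8 and 11 to 15 and 1 in the interaction, and mitochondrial ones from 5 and 2 to 1 and 5 in parental DTP against parental. Without the filter, 3 mitochondrial mRNAs were called in parental DTP against parental (7 with it) and 9 nuclear members in chemoresistant DTP against chemoresistant (14 with it). The cause was not tested. With voom, 10637 of all genes tested were called in chemoresistant against parental and 6573 in chemoresistant DTP against chemoresistant. The planned edgeR fit was not run, because the table holds FPKM. Leaving out 1 library at a time gave 18 to 33 nuclear calls in parental DTP against parental, 10 to 21 in chemoresistant DTP against chemoresistant, 52 to 59 in chemoresistant against parental, 48 to 56 between the DTP groups and 16 to 37 in the interaction. The 37, the 33 and the 21 came without chemoresistant DTP library 2. The mitochondrial calls ran from 6 to 8, 2 to 3, 6 to 9, 6 to 6 and 3 to 5, with 5 without parental DTP library 4 or chemoresistant DTP library 2. Of 69 calls of named members, none changed sign under any alternative, 15 were lost under relative log expression scaling and 14 without the filter. With parental DTP libraries 5 and 6 both left out, 7 were lost.

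Replicate numbers did not pair the libraries: deviations of same-numbered libraries correlated at -0.385 to 0.403 over 36 pairs, 12 of them over 0.1, and 3 of 24 libraries correlated best with their own number. With the replicate number as a block, MT-CO3 in parental DTP against parental (adjusted p = 0.0502) and NDUFA4 in chemoresistant against parental (0.0533) lost their calls. Relative log expression scaling shifted the median of all genes from 0.14 to near 0 in both parental DTP and chemoresistant against parental. Depth limits the low isoforms: a count of 0 allows up to 3 reads per library.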
